A study of Rattus norvegicus with 3 samples.

Results

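The glutathione and NRF2 antioxidant genes examined here were 10 genes: Gclm, Gclc, Gsr, Gpx1, Gpx2, Gpx3, Nqo1, Hmox1, Txnrd1 and Sod3. They were taken by gene name among the probes of a rat array that are not control spots, and all 10 were found, on 12 of 30367 probes. Kidney RNA came from male spontaneously hypertensive rats, a strain of Wistar background whose blood pressure climbs with age, that were 8 to 10 weeks old and weighed 280 to 330 g. For 4 weeks, groups of 10 rats received by mouth either water (the control group), or a blue mussel protein hydrolysate (HBMP in the labels), that is, mussel protein cut into peptides, at 10 mg/kg per day (the low-dose group) or 20 mg/kg per day (the high-dose group). RNA of 4 rats per group was mixed, labelled with Cy3 and put on 1 Agilent array. Every group is therefore 1 pool on 1 array, the animals of a pool cannot be told apart, no test between groups was possible, and precision is limited by having so few arrays.

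Glutathione is the main small thiol of cells. It is made by glutamate-cysteine ligase and then by glutathione synthetase, spent by the glutathione peroxidases on hydrogen peroxide and lipid peroxides, and returned to its reduced form by glutathione reductase. The transcription factor NRF2 is held by KEAP1 and degraded in unstressed cells. Oxidants and electrophiles release it, and it then binds antioxidant response elements together with small MAF proteins and raises genes of glutathione synthesis, quinone reduction, heme breakdown and the thioredoxin system. The proximal tubule of the kidney makes and turns over glutathione and is the main source of the plasma peroxidase GPX3.

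Values are net spot intensities in arbitrary units, scaled so that the 75th percentile of all probes was equal on the 3 arrays. Detection above background asked for signal-to-noise ratios of at least 3 in no less than 50% of a probe's spots. This held for 15352 (control), 15806 (low dose) and 16617 (high dose) probes, and for all 10 genes on each array. Across the 14554 probes above background on every array, log2 values of any pair of arrays correlated at 0.985 to 0.990 (Pearson, across probes). Of the genes, 3, Gsr, Gpx1 and Hmox1, were printed on 10 spots each, and the other 7 on 1 spot per probe. The SD over spots given for the genes with 10 spots is technical spread within an array, with n the number of spots. For genes with 1 spot, the yardstick is the spread of spot pairs among probes that were printed 10 times and are about as bright. A gene counted as different when it was above background on both arrays and differed by at least 2-fold.

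The promoters of the 3 genes that passed 2-fold at the low dose, Gclm, Gclc and Gpx2, are shown because NRF2 acts through a promoter motif. Each sequence holds the 250 bases before the gene's start in RefSeq (GRCr8), 5′ to 3′ on the gene's strand: chr2:213031885-213032134 on the plus strand, chr8:87510226-87510475 on the plus strand and chr6:101230034-101230283 on the minus strand. Capitals mark matches to the core of the antioxidant response element, TGACNNNGC, searched on both strands. Both matches below lie on the opposite strand, so the printed letters read GCNNNGTCA.
Gclm: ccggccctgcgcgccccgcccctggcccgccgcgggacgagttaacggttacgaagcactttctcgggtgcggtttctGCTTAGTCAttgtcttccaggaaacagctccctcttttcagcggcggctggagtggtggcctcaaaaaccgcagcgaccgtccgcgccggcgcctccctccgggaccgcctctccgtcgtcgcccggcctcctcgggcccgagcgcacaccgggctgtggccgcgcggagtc
Gclc: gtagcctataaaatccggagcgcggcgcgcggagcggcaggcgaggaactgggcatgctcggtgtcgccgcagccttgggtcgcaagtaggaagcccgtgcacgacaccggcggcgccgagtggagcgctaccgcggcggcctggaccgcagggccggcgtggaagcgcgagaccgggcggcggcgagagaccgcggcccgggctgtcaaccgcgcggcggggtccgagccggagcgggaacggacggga
Gpx2: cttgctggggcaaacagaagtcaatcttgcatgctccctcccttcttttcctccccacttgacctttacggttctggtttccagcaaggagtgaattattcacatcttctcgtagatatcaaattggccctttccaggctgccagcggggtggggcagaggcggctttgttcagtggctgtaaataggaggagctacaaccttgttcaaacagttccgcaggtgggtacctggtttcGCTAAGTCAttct
The match of Gclm began 172 bases before the start, and that of Gpx2 13 bases before it. No match lay in this window of Gclc. Of the 10 genes, 7 had promoters in the RefSeq table, 8 promoters in all, and 3 of the 8 held the core. The third was in a promoter of Txnrd1, 78 bases before that start and again on the opposite strand, with the letters GCTTTGTCA. Of all 33469 promoters in the table, 10.1% held it. Among the lists of related genes described below, the share differed widely. It was 0 of 19 promoters for other glutathione synthesis and recycling and 3 of 7 for NADPH supply. A match describes letters only. Gclm and Gpx2, which both hold it, differed from control in opposite directions at the low dose.

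The low dose against control asked which of the genes stood at another level in treated kidneys. Both subunits of glutamate-cysteine ligase were lower at the low dose, by 2.31-fold for Gclm and 2.20-fold for Gclc. The intestinal-type glutathione peroxidase Gpx2 was 2.76-fold higher. The heme oxygenase Hmox1 stood 1.72-fold higher, under the 2-fold line, and the other 6 genes were 1.02- to 1.29-fold lower than control. By the 2-fold rule 1 of the 10 genes was higher and 2 were lower. The shares over the 9742 named genes detected on both of these arrays were 2.48% higher and 0.739% lower by that rule. The median log2 difference was -0.24 over the 10 genes and -0.11 over all named genes.

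The high dose against control gave smaller differences. None of the 10 genes passed 2-fold in either direction, against 0.849% (higher) and 0.152% (lower) of 9899 named genes. The largest difference in size was that of Gclc, at -0.56 (log2), and Gpx3 stood highest, at 0.36. The median over the 10 genes was -0.18, with 7 of them below control. The median over all named genes was -0.05, with 42.5% of them above control. Both comparisons use the same control array, so a high or low value there enters both.

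High dose against low dose asked whether levels differed between the doses themselves. Given the high dose, Gclm was 2.06-fold higher and Gpx2 2.87-fold lower than at the low dose. Hmox1, at -0.98 (log2), lay just inside the 2-fold line, and Gclc at 0.58 was next in size. This made 1 gene of the 10 higher and 1 lower by the 2-fold rule. The corresponding shares of 10133 named genes were 0.464% and 1.5%. For Gclm, Gpx2 and Hmox1 the low-dose array was the one that stood apart. For Gclc the high-dose array lay about midway between control and low dose, at -0.56 from control and 0.58 from low dose (log2).

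**Figure D1:**
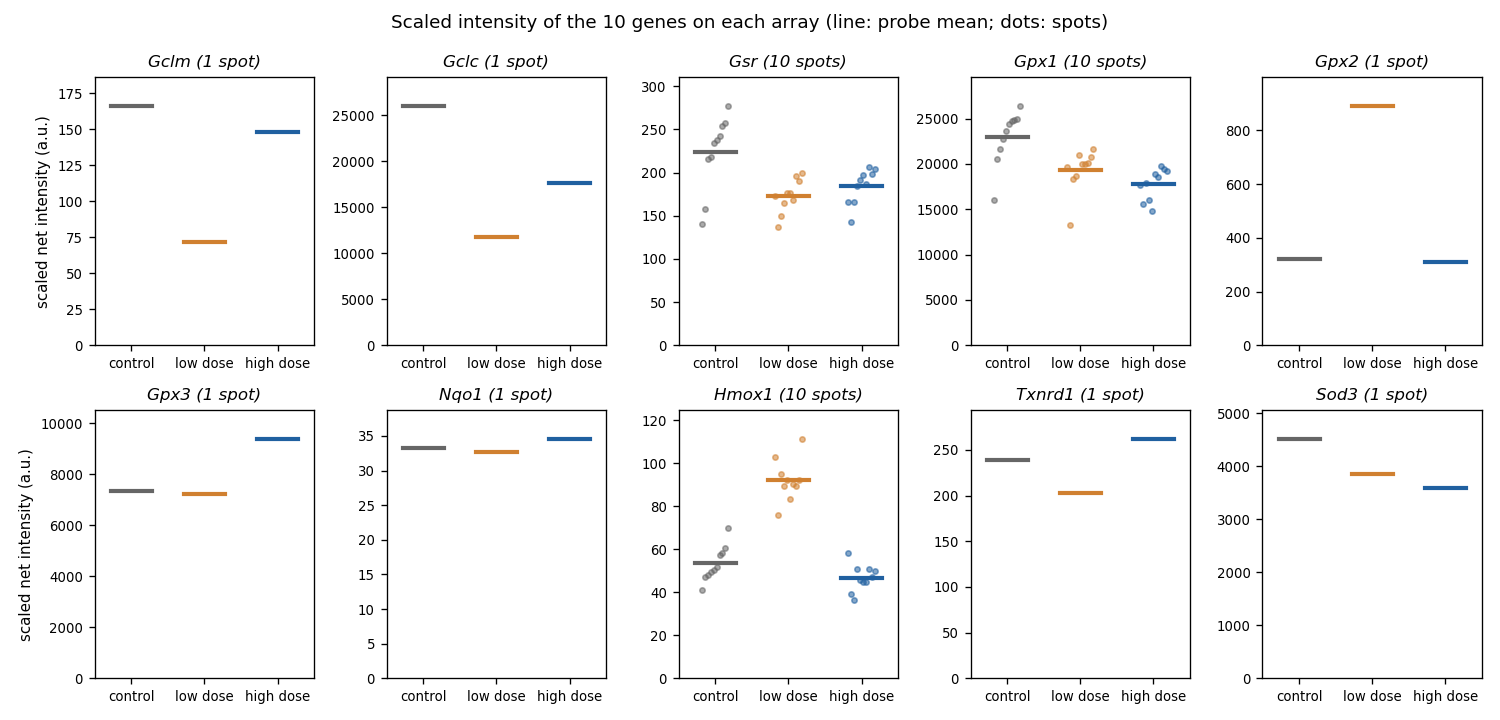
Scaled net intensity (arbitrary units, linear axes from 0) of the 10 genes by array (control, low dose, high dose); lines are probe means and dots are single spots of genes printed 10 times. Gclm (71.9 units) and Gclc (11801 units) are lowest and Gpx2 (891.1 units) and Hmox1 (92.1 units) are highest on the low-dose array.

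Glutamate-cysteine ligase sets the pace of glutathione synthesis. Its catalytic subunit is Gclc, and Gclm is the modifier subunit that raises its affinity for glutamate. Gclm had a scaled intensity of 166.2 (control), 71.9 (low dose) and 148.3 (high dose). The low-dose value was the lowest, with a log2 difference from control of -1.21. Of 9742 named genes, 26 lay lower than Gclm in that comparison. Spot pairs of probes of this brightness (100 to 1000 units) had an SD of 0.16, and 0.339% of them lay 2-fold or farther from the median of their probe. Gclm was printed on 1 spot per array and has no second probe. Under normexp background correction, which adds an offset of 50 units and so compresses dim signals, its difference was -0.76, which is inside 2-fold. Its difference between the doses was then 0.63, in place of 1.04.

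Gclc had a scaled intensity of 26021 (control), 11801 (low dose) and 17604 (high dose). The order was control, high dose, low dose, and each step was larger than the spread of spot pairs of this brightness. The SD of those pairs was 0.12 between the doses and 0.17 to 0.20 against control, from 15 probes. This is technical spread and holds no variation between pools of animals or between hybridisations. The log2 difference from control was -1.14 at the low dose, with 33 of 9742 named genes lower, and -0.56 at the high dose, with 454 of 9899 lower. No pixel of its spot was saturated on any array. Normexp left the low-dose difference at -1.04. Gclc too was read from 1 spot per array. After a correction for position on the array, the low-dose differences of Gclm and Gclc were -1.15 and -1.14 (log2).

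Gsr, the reductase that regenerates glutathione with NADPH, averaged 223.8 ± 43.4 units (control), 173.3 ± 19.8 (low dose) and 184.4 ± 20.4 (high dose) (SD over 10 spots). The spots of the 3 arrays overlapped, at 140.9 to 277.3 (control), 137.2 to 199.5 (low dose) and 142.8 to 206.5 (high dose). Its log2 difference was -0.37 at the low and -0.28 at the high dose, beside SDs of the paired spots of 0.24 and 0.19. Of its spots, 1 lay within a region of weak signal at 1 corner of the control array, the only spot there of the probes that represent these genes.

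The glutathione peroxidases reduce peroxides with glutathione, and Gpx1, Gpx2 and Gpx3 carry selenocysteine at the active site. Gpx1, the peroxidase of the cytosol, averaged 22988 ± 2996 units (control), 19315 ± 2353 (low dose) and 17784 ± 1724 (high dose) (SD over 10 spots). Its spots overlapped between all arrays, and the log2 differences from control were -0.25 at the low dose and -0.37 at the high dose, with SDs of the paired spots of 0.23 and 0.21. Gpx3, which is secreted by the proximal tubule into plasma, had 7338 units (control), 7211 (low dose) and 9386 (high dose). Control and low dose were within the spread of spot pairs, and the high-dose value was above both, by 0.36 and 0.38 (log2). This was 1.28-fold over control, with 1004 of 9899 named genes farther up.

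Gpx2, the peroxidase best known from the epithelium of the gut and a target of NRF2, had 323.1 units (control), 891.1 (low dose) and 310.2 (high dose). Control and high-dose values differed by -0.06 (log2), inside the spread of spot pairs, and the low-dose value stood apart. Of 9742 named genes, 98 lay higher at the low dose against control than Gpx2 at 1.46. A different probe of Gpx2, also on 1 spot, had 69.9 units (control), 240.8 (low dose) and 91.9 (high dose). It gave 1.78 at the low dose and -1.39 between the doses, on the same side of 2-fold as the first probe. At the high dose against control the probes disagreed in sign, at -0.06 and 0.39, so no direction is given there. Under normexp the first probe kept a difference of 1.34 at the low dose.

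Hmox1 breaks heme down to biliverdin, carbon monoxide and iron, and is abundant in macrophages that clear red cells. It averaged 53.4 ± 8.2 units (control), 92.1 ± 9.7 (low dose) and 46.8 ± 6.3 (high dose) (SD over 10 spots). Spots ran from 41.3 to 69.9 (control), 75.8 to 111.3 (low dose) and 36.4 to 58.2 (high dose). The low-dose spots lay above all spots of the other arrays, and those of high dose and control overlapped. These are technical spots of 1 probe, and how many other probes separated in this way was not counted. The 10 paired spots gave log2 differences of 0.60 to 1.31 at the low dose against control. With a probe mean of 0.79 Hmox1 ranked below 386 of 9742 named genes and did not pass 2-fold. Its signal was dim, and under normexp the difference was 0.33, and 0.54 in the authors' deposited table of log2 values. Between the doses it was -0.98 here, -0.51 under normexp and -1.07 in the authors' deposited table.

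Nqo1 reduces quinones and is the standard readout of NRF2 activity in many tissues. It had 33.2 units (control), 32.6 (low dose) and 34.6 (high dose), all within the spread of spot pairs. Its signal-to-noise ratios were 4.00, 3.78 and 4.50 in that order, close to the limit of 3, and such a dim probe on 1 spot limits what could be detected. Txnrd1, the selenoprotein that keeps thioredoxin reduced in the cytosol, had 239.5 units (control), 202.4 (low dose) and 262.0 (high dose). Its dimmer second probe had 52.7, 35.5 and 36.4 units in the same order. At the low dose both probes were below control, at -0.24 and -0.57 (log2), but at the high dose they disagreed in sign, at 0.13 and -0.53. Sod3, the extracellular superoxide dismutase, had 4517 units (control), 3849 (low dose) and 3583 (high dose). The differences from control were -0.23 and -0.33 (log2), beside an SD of spot pairs of 0.14 and 0.13.

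**Figure D2:**
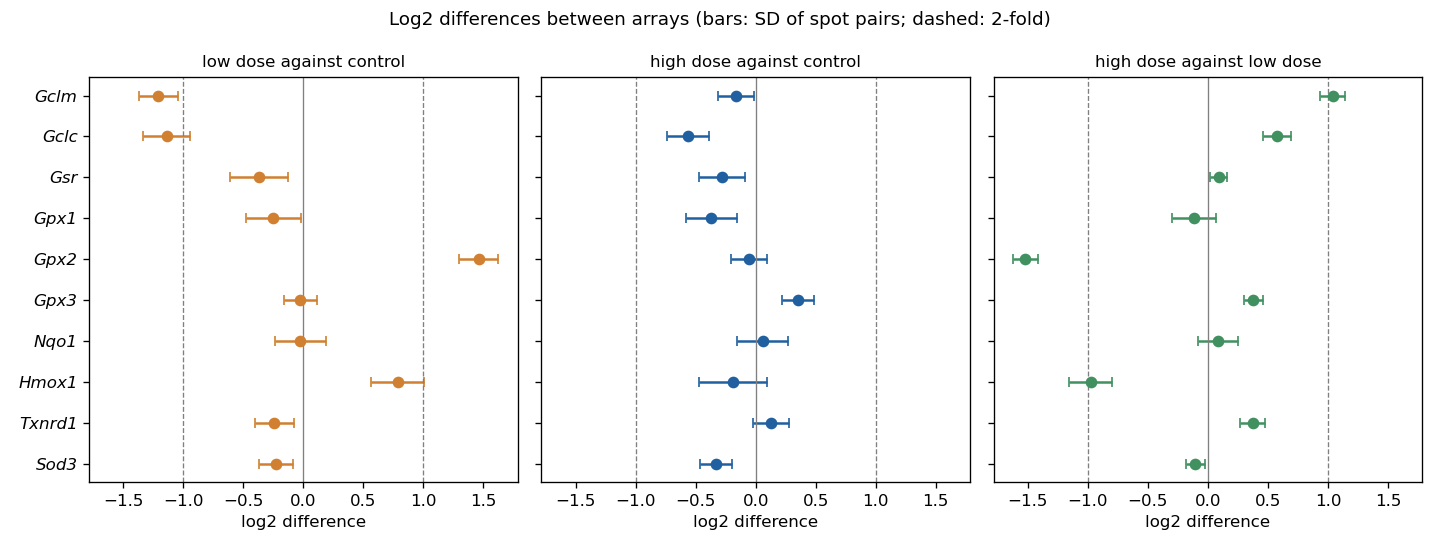
Log2 differences of the 10 genes for low dose against control, high dose against control, and high dose against low dose; bars are the SD of paired spots (own spots where a gene has 10, otherwise probes of similar brightness) and dashed lines mark 2-fold. At the low dose Gclm and Gclc lie left of -1 and Gpx2 at 1.46, while no gene passes a dashed line at the high dose against control.

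The other genes of the pathway were read as 11 lists of 164 genes, of which 161 were on the array. At the low dose 135 were above background on both arrays, 3 of them were higher and 1 lower by 2-fold or more, and 97 lay below control. These are shares of 2.22% and 0.741%, close to the 2.48% and 0.739% of all named genes. The median over these pathway genes was -0.22 (log2), beside -0.11 for all named genes, of which 34.6% lay above 0. For the high dose against control 0 of 134 passed 2-fold in either direction, beside 0.849% and 0.152% of all named genes, and the median was -0.02. Between the doses 139 could be compared, 0 were higher and 1 was lower by 2-fold at the high dose (0.719%, against 1.5% of all named genes), and the median was 0.11. That gene was Abcc5, whose second probe did not show the difference.

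Other genes of glutathione synthesis and recycling had a low-dose median of -0.14 over 14 measured genes, 8 of them below control. Glrx, the glutaredoxin that removes glutathione from protein thiols, was 2.04-fold higher at the low dose and passed 2-fold. It averaged 140.3 units (control), 285.7 (low dose) and 181.6 (high dose). A further 3 genes of the glutathione cycle are named for their roles after their values were seen. They were the 3 lowest of the 14 measured genes at the low dose. Of the 14, 6 lay above control, as did 34.6% of all named genes. Gss, which completes glutathione synthesis after glutamate-cysteine ligase, had 1224 units (control), 722.3 (low dose) and 1159 (high dose), a low-dose difference of -0.76 (log2). Ggt1, the brush border enzyme that opens glutathione degradation outside the cell, stood at -0.87 at the low and -0.54 at the high dose. Ggct, which degrades gamma-glutamyl peptides, stood at -0.62 and -0.25. None of these 3 passed 2-fold. Slc7a11, the cystine carrier that feeds the synthesis and a target of NRF2, was not above background on any array.

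Among the other glutathione peroxidases, Gpx7, an enzyme of the endoplasmic reticulum, was 2.12-fold higher at the low dose, with 58.4 units (control), 123.7 (low dose) and 73.7 (high dose). Gpx8, its relative in the same compartment, stood at 0.77 (log2) and Gpx4, which reduces lipid peroxides in membranes, at -0.29; both are given to complete the family. The high-dose value of Gpx4 was -0.66. Gpx5 was not above background on any array, and Gpx6 was above it on 2. No glutathione S-transferase above background on both arrays passed 2-fold at either dose. The range ran from Gstt2 at -0.58 (low dose) to Gstm2 at 0.95 (high dose). The microsomal Mgst2 was not above background on the control array, and its signal was at least 5.23-fold higher at the low dose and at least 3.33-fold higher at the high dose, from 1 spot of 22.9 units (control), 119.9 (low dose) and 76.4 (high dose).

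NRF2 itself, encoded by Nfe2l2, had 894.9 units (control), 821.1 (low dose) and 886.1 (high dose), and its inhibitor Keap1 had 82.5, 72.9 and 81.0 in the same order; both are named for their role. Of the 9 measured genes of NRF2 and its regulators at the low dose, 8 lay below control and 0 passed 2-fold. Of all named genes, 34.6% lay above control there, and 2.48% were higher and 0.739% lower by 2-fold. Rbx1, a ubiquitin ligase subunit, was highest in the list at 0.26 (log2) and Nfe2l1 lowest at -0.40. The values of this list are transcript levels, while NRF2 is controlled mainly through its degradation. Among 21 other NRF2 targets of detoxification at the low dose, Abcc5, an export pump, was 2.65-fold higher and Osgin1, a stress-induced growth inhibitor, 2.09-fold lower. Abcc5 was read from a probe with 10 spots, and its second probe gave 0.52 in place of 1.40, so its size is uncertain. Between the doses its probes disagreed in sign, at -1.17 and 0.12, so no direction is given there. Osgin1 followed the order of Gclm, with 206.3 units (control), 98.8 (low dose) and 191.1 (high dose). None of 20 passed at the high dose.

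Thioredoxin and peroxiredoxin genes had medians of -0.16 at the low and 0.13 at the high dose (log2), with 0 of 17 past 2-fold at either, between Sesn3 at -0.70 and Txnip, the thioredoxin inhibitor, at 0.49, both at the high dose. Of the other superoxide dismutases and catalase, all 4 lay below control at the low dose, where 34.6% of all named genes lay above it. At the high dose Cat, which breaks down hydrogen peroxide in peroxisomes, was highest at 0.62 and the cytosolic Sod1 lowest at -0.53. NADPH supply had a median of -0.10 at the low and -0.18 at the high dose over 9 genes. Idh1 was at 0.21 at the high dose and Nnt, the mitochondrial transhydrogenase, at -0.53 at the low dose. Heme and iron handling stood at a low-dose median of -0.29, and 9 of 10 measured genes lay below control, beside the same 34.6% above it. Hmox2, the constitutive heme oxygenase, was at -0.53 there, against 0.79 for Hmox1, and Tfrc, the transferrin receptor, was highest in the list at 0.54 at the high dose.

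Genes that supply or use selenium matter to Gpx1, Gpx2, Gpx3 and Txnrd1. Over 14 measured genes their median was -0.24 at the low and -0.08 at the high dose (log2), and 0 passed 2-fold. Selenow, a small selenoprotein, was highest at 0.89 at the low dose, and Secisbp2, which recodes the selenocysteine codon, lowest at -0.62 at the high dose. Enzymes that make oxidants had a low-dose median of -0.29 over 15 measured genes. The phagocyte oxidase subunit Ncf4 was highest at 0.79 at the low dose, and Ddo, a peroxisomal oxidase of D-aspartate, lowest at -0.72 at the high dose. None passed 2-fold.

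**Figure D3:**
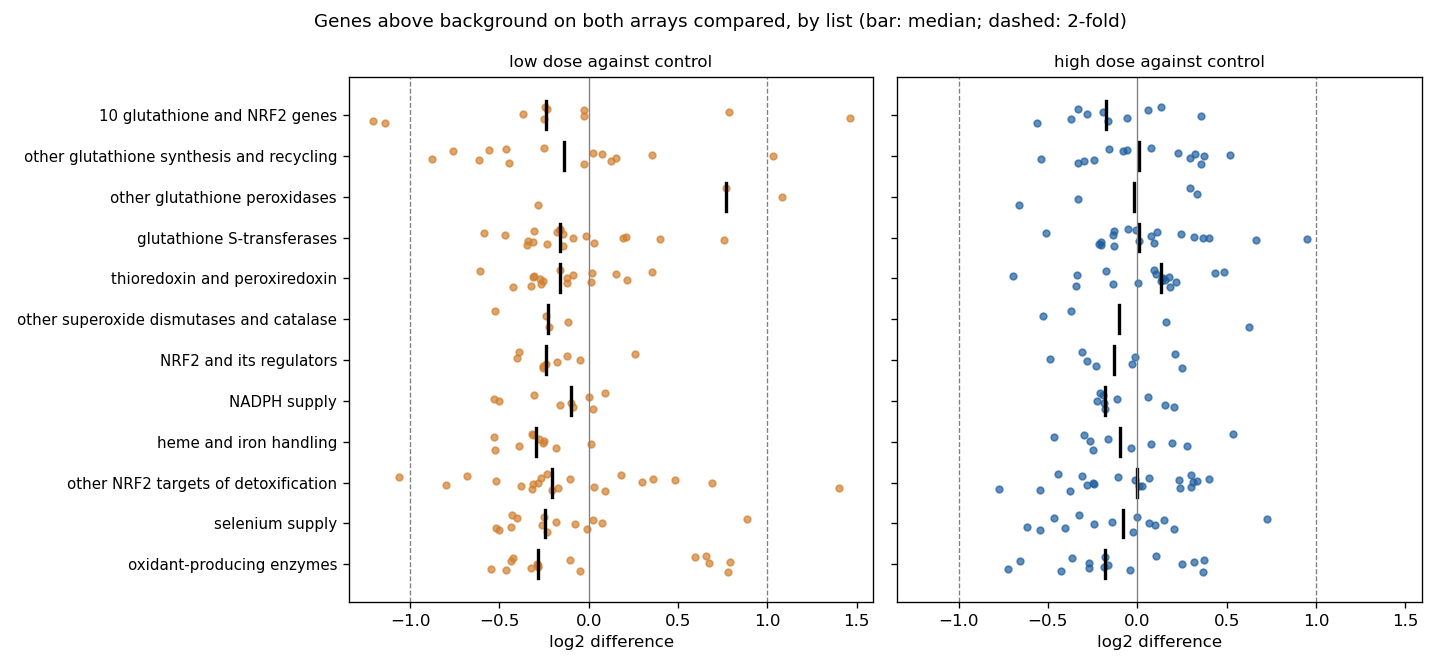
Log2 differences of genes above background on both arrays at the low dose and at the high dose against control, 1 dot per gene, grouped by list; bars are list medians and dashed lines mark 2-fold. At the low dose Glrx, Gpx7 and Abcc5 lie beyond the upper and Osgin1 beyond the lower line among the other pathway genes, and at the high dose no gene does.

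Cell type markers were read on the same arrays. In these bulk samples fewer cells of a type and less RNA per cell cannot be told apart. All 18 proximal tubule and all 12 distal nephron markers were above background on each array, so the defining cells of the labelled tissue were found. The summed intensity of the proximal tubule markers was 250412 units (control), 190145 (low dose) and 185383 (high dose), and their median differences were -0.40 and -0.43 (log2) at the low and high dose. All 18 lay below control at the low dose and 17 at the high dose, where 34.6% and 42.5% of all named genes lay above it. Gclc, Ggt1 and Gclm were farther below control at the low dose than that median. The high-dose value of Gclc, -0.56, was again below the median of that dose, and that of Gclm, -0.16, above it. The marker Slc7a13, an amino acid carrier, was farther below control at the low dose than Gclc and Gclm, at -1.30, and stood at -0.44 at the high dose and 0.85 between the doses. Its order of control, high dose, low dose was that of Gclc and Gclm. Most markers of the list did not share this order. Between the doses 13 of the 18 were lower at the high dose and 5 higher, with a median of -0.07 (log2). Of all named genes, 54.8% were higher at the high dose in that comparison. The part of the proximal tubule markers in the values of Gclc and Gclm was not tested.

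Sums of other marker lists also differed between the arrays. Fibroblast and matrix markers summed to 4361 units (control), 14191 (low dose) and 4779 (high dose), with 8, 10 and 8 of 12 above background. Macrophage and leukocyte markers summed to 23866, 32903 and 21685 in the same order, with 5 of 13 measured markers at least 2-fold higher at the low dose and 0 at the high dose. The shares of all named genes at least 2-fold higher were 2.48% (low dose) and 0.849% (high dose). Mrc1, Msr1 and Marco were not above background on any array, and Cd163 was above it on the low-dose array alone. Tubular injury markers summed to 9348, 20995 and 10491. The sums of these 3 lists, like Hmox1 and Gpx2, were highest on the low-dose array. So were the adipocyte, urothelial, smooth muscle and distal nephron sums given below, so this was not particular to the 3 lists. The part of the 3 lists in the values of Hmox1 and Gpx2 was not tested.

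Adipocyte markers summed to 5081 units (control), 13864 (low dose) and 8920 (high dose), with 9, 11 and 11 of 13 above background, and Plin1 and Lep above it on none. Most of the control sum was Pck1, with 3910 units there, which is also in the proximal tubule list. Without Pck1 the adipocyte sum was 1171 units (control), 10123 (low dose) and 5241 (high dose), or 8.64-fold over control at the low and 4.47-fold at the high dose. The median log2 differences of the 9 measured adipocyte markers were 2.80 and 1.46. Urothelial markers summed to 238.3, 1121 and 798.8 units, with 2, 4 and 4 of 7 above background. Smooth muscle markers summed to 657.7, 1178 and 1159. The full sums of these 3 lists were above control on the high-dose array as well, by 1.76-, 3.35- and 1.76-fold. Hmox1 stood there at -0.19 (log2) and the 2 probes of Gpx2 at -0.06 and 0.39. The part of these cells in the values of Hmox1 and Gpx2 was not tested either. Endothelial markers summed to 3754, 3717 and 3449 units, and red blood cell markers to 47504, 53956 and 55919. The distal nephron sum was 63496, 73148 and 63830, but 8 of its 12 markers lay below control at the low dose. Of all named genes, 34.6% lay above control there. The median of the distal nephron list was -0.27 (log2). Its higher low-dose sum came from Aqp2, the water channel of the collecting duct, with 12251, 30768 and 18708 units in the same order. The sum without Aqp2 was 51245, 42381 and 45122. The other markers of this list above control at the low dose were Fxyd4 at 1.33, Aqp3 at 0.84 and Calb1 at 0.35 (log2).

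**Figure D4:**
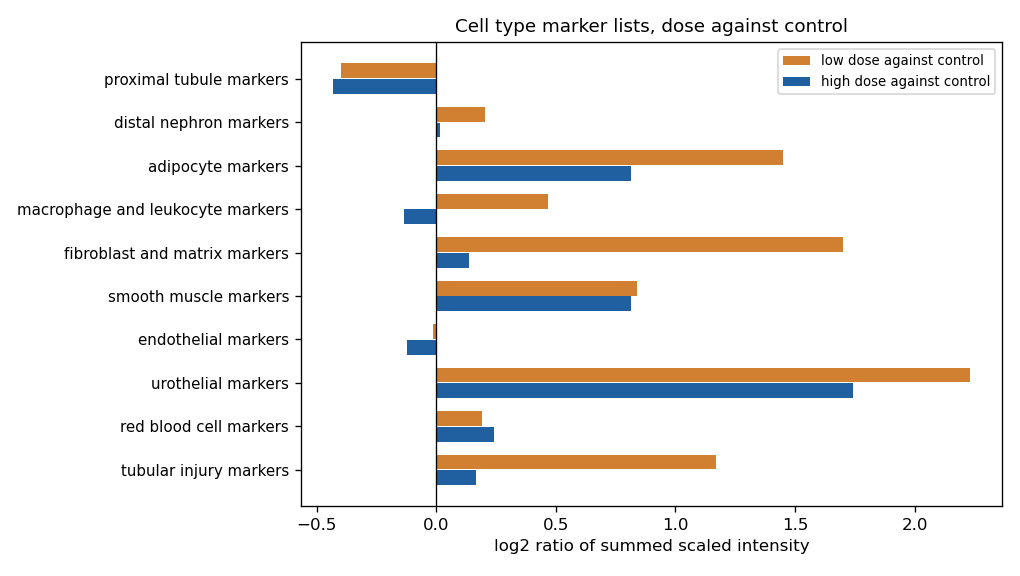
Log2 ratio of the summed scaled intensity of 10 cell type marker lists, low dose (upper bar) and high dose (lower bar) against control (the adipocyte sum includes Pck1 and the distal nephron sum Aqp2). Proximal tubule markers lie below 0 at both doses; fibroblast and tubular injury markers lie farther above 0 at the low dose than at the high dose, and macrophage markers lie above 0 at the low dose and below it at the high dose.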

How the data were processed

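Kidney RNA pools of 3 groups were hybridised with Cy3 to Agilent rat arrays, 1 array per group, per the labels. Groups came from the sample labels. The intensity of every spot at 532 nm was deposited after a background of 39 or 40 units had been taken off in GenePix Pro 6.1.0.4 (photomultiplier at 550), per the file headers. Per the file headers, a signal-to-noise score and a flag score accompany it, with the percent of saturated pixels. A further table deposited by the authors holds log2 values whose median is 4.77 on every array, scaled by a method not given in the sources used here. Feature Extraction, named in the submitters' processing notes, is not the source of these GenePix columns. The high-dose header names a mouse design although the spot annotation equals that of the control array. Slide position and group cannot be told apart, since 1 slide held the arrays.

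Control spots were left out, as were bright spots that the software did not find (6, 5 and 6 in control, low-dose and high-dose order) and spots whose foreground pixel mean and median differed over 1.5-fold (131, 126 and 67). Spots of a probe were averaged, scaled to an equal 75th percentile (factors 1.15, 0.959 and 0.910), given a floor of 1 and log2-transformed. Names came from accessions in a RefSeq table (GRCr8) for 18355 probes, a current symbol for 2758, a synonym for 422 and the file's symbol for 1787; 7045 had none. Among several probes of a gene, the one detected on the most arrays was used, and on a tie the brightest. An at-least fold divides the bright signal by the dim probe's value or, if larger, the weakest detected signal of that array (13.8 units on control). Genes with placeholder symbols were left out of counts over all genes. The calculation was tested on simulated data in which every array had the signal-to-noise ratios of the control array. Detection above background was therefore not tested. Net mean intensity and signal-to-noise ratio replaced the Feature Extraction signals for which the design was written. Analyses used Python 3.11.15, pandas 2.3.3 and, for normexp with an offset of 50, limma 3.58.1.

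The 10 genes, the lists and the 2-fold rule were chosen with earlier results of these data known. Named were all 10 genes, up to 4 genes per pathway list past 2-fold at a dose or else its highest and lowest, and genes stated to be named for their role or to complete a family, together with Slc7a11, Mgst2, Gpx5 and Gpx6, which were chosen after their values were seen. Marker lists are given as sums and counts. The single markers named with values, Slc7a13, Aqp2, Fxyd4, Aqp3, Calb1 and Pck1, were chosen after their values were seen.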

Additional observations from a re-analysis of the deposited data

How the results depend on the processing

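Every value of the 10 genes was recomputed under 9 other settings of the processing and 3 more added after seeing the data: a correction for position, leaving out the weak corner of the control array, and the other probe of Gpx2 and Txnrd1. Leaving 1 gene out of the distal nephron and adipocyte sums was also chosen after seeing the data. Of 336 such values 318 moved by less than the SD of spot pairs and 18 by more, and 0 differences past 2-fold changed sign. The 318 include values that could not move. Keeping dim probes or raising the floor to 10 left every value as it was, since all 10 genes lay above background and that floor. A mean over a gene's probes could move only Gpx2 and Txnrd1. Gclc at the low dose ranged from -1.23 to -1.04 (log2) and Gpx2 from 1.34 to 1.78, past 2-fold in every alternative. Gclm ranged from -1.33 to -0.76 and fell inside 2-fold only under normexp. Counts were 0, 1 or a few genes, so a single gene at the line changes them. Under normexp, 1 of the 10 genes in place of 2 was at least 2-fold lower at the low dose and 0 in place of 1 at least 2-fold higher between the doses (high over low); for the other pathway genes the low dose gave 1 higher in place of 3 and 0 lower in place of 1, and the comparison of doses 0 lower in place of 1. With a mean over a gene's probes the last count was also 0. Under quantile normalization, the authors' deposited values and the position correction, 2 of the 10 genes in place of 1 were lower by 2-fold between the doses, Hmox1 being the added gene at -1.07 in the deposited table. The position correction gave 1 other pathway gene at least 2-fold higher between the doses in place of 0. With dim probes kept, the other pathway genes had 4 higher and 1 lower at the high dose against control, 7 higher and 4 lower at the low dose against control, and 2 higher between the doses. Over all named genes, normexp gave 132 higher and 15 lower at the low dose in place of 242 and 72, 33 and 2 at the high dose in place of 84 and 15, and 12 and 63 between the doses in place of 47 and 152. With dim probes kept these counts were 948 and 1718, 1044 and 957, and 1592 and 692 in the same order. Keeping non-uniform spots gave 30 lower genes in the high-dose comparison with control, and the authors' deposited values gave 29. Signs of differences near 0 changed: Nqo1 at the low dose ran from -0.12 to 0.13. No paired analysis was possible because each group has 1 array. Signal near background limits Nqo1 and Hmox1 most.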
